A study of Drosophila melanogaster with 6 samples.

Results

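The elements described here are the Gypsy-superfamily LTR retrotransposons of Drosophila that lie outside its best-known families: the Invader elements, mdg3 and its relatives, and a mixed remainder that includes HMSBEAGLE, TABOR, TRANSPAC and NOMAD. They were taken from the annotation as the elements filed under Gypsy whose names do not begin with gypsy, GTWIN, mdg1, DM412, blood, Stalker, DM297, DM176, rover, ZAM, Idefix, Quasimodo or Tirant. Names were matched in any case. This gave 27 elements of the 155 transposon elements in the files and of 30693 summed items (transposon elements, genes and tRNA anticodons) in all. The 27 elements comprised 2592 annotated copies of 133537 annotated features with a read. Reads of all copies of an element were summed. Of the 27 elements, 25 had a mean of 10 or more reads over the 4 crosslinked libraries and are reported, and DMTOM1 and Ulysses fell under that minimum.

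The libraries are eCLIP, which reads out the RNA recovered together with a protein after UV crosslinking, from OSS cells, a cultured line of ovarian somatic sheath cells. All 6 libraries came from cells carrying Asterix (Gtsf1) under its endogenous promoter with a C-terminal tag that includes GFP and FLAG, inputs included, and a library from untagged cells was not analysed here. The groups were crosslinked IP (UV at 254 nm, anti-FLAG beads, 2 libraries), crosslinked input (the same irradiation, lysate before the beads, 2), and, from cells not irradiated, 1 non-crosslinked input and 1 non-crosslinked IP. The labels do not say whether the 2 libraries of a group came from separate cultures, so p-values measure the spread between these libraries, which may be technical.

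Gypsy-superfamily elements are retroelements in which an internal region coding for gag and pol, and in some families an envelope protein, lies between 2 long terminal repeats (LTRs) that carry the promoter and the polyadenylation signal. In the somatic cells of the fly ovary, Piwi loaded with piRNAs, many of them antisense to such elements, represses their transcription in the nucleus. Asterix is a small zinc-finger protein that works with Piwi in this repression. The counts were not stated to use strand, so sense transcripts of an element and antisense precursors of piRNAs cannot be told apart here.

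The shallowest library, the non-crosslinked IP, had 2619716 reads in all, and the deepest, crosslinked input replicate 1, had 15992638. A count of 3, used as the floor, was worth 0.191 to 1.31 RPM, the depth-scaled read level used below, with annotated reads as the total. Unannotated reads, left out of that total, were 1.98% to 12.9% of a library. Of 5 somatic ovary marker genes, 4 reached the count minimum, of which 3 fell and 0 rose in the crosslinked IP. Over all tested items 17.3% fell and 20.3% rose. The 5 genes summed to 69.6 to 184 RPM per library. None of 6 germline marker genes reached the count minimum, and they summed to 0.829 to 2.66 RPM, with osk and bam at 0 in crosslinked input replicate 1. The tagged gene, arx, was under the count minimum. The replicates differed by more than sampling noise, with a chi-square statistic per degree of freedom of 9.54 for the input pair and 6.87 for the IP pair, both crosslinked.

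The crosslinked IP was set against the crosslinked input to find which RNAs were recovered with Asterix more than their level in the lysate. Together the 27 elements took 0.0442% and 0.0447% of annotated reads in the 2 crosslinked inputs, against 0.0941% and 0.106% in the 2 IPs. Both IPs lay above both inputs, and the mean IP share was 2.25 times the mean input share. With 2 libraries against 2 an exact two-sided permutation test cannot go below p = 0.333, so this ratio is given without a test. It was 1.89 with rRNA left out of the total and 2.07 without BLASTOPIA, the element with the most reads. In a bulk lysate, few cells with much of an RNA and many cells with little of it cannot be told apart.

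Element by element, 16 of the 25 rose in the crosslinked IP, 1 fell and 8 passed in neither direction. The test was a quasi-likelihood F test in edgeR, with Benjamini-Hochberg adjusted p-values over the full set of 9386 tested items and a threshold of 0.05. Of all these items 20.3% rose and 17.3% fell. The median log2 ratio of IP over input was 0.69 for the 25 elements, against -0.01 for all items tested. All 16 that rose did so in all 4 pairings of an IP with an input. Whatever the call, with TMM scaling all 4 pairings were up in 19 of the 25 elements. The same held for 3193 of the 9386 tested items and for 29 of 32 other Gypsy-superfamily elements. The other 32 tested Gypsy-superfamily elements had 27 higher and 0 lower, with a median of 2.42, and the 14 Copia and Pao elements had 3 higher and 7 lower, with a median of -0.29. The log2 ratios of the 25 ran from -0.88 for Chimpo to 3.44 for TABOR, with standard errors of 0.13 to 0.30.

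**Figure D1:**
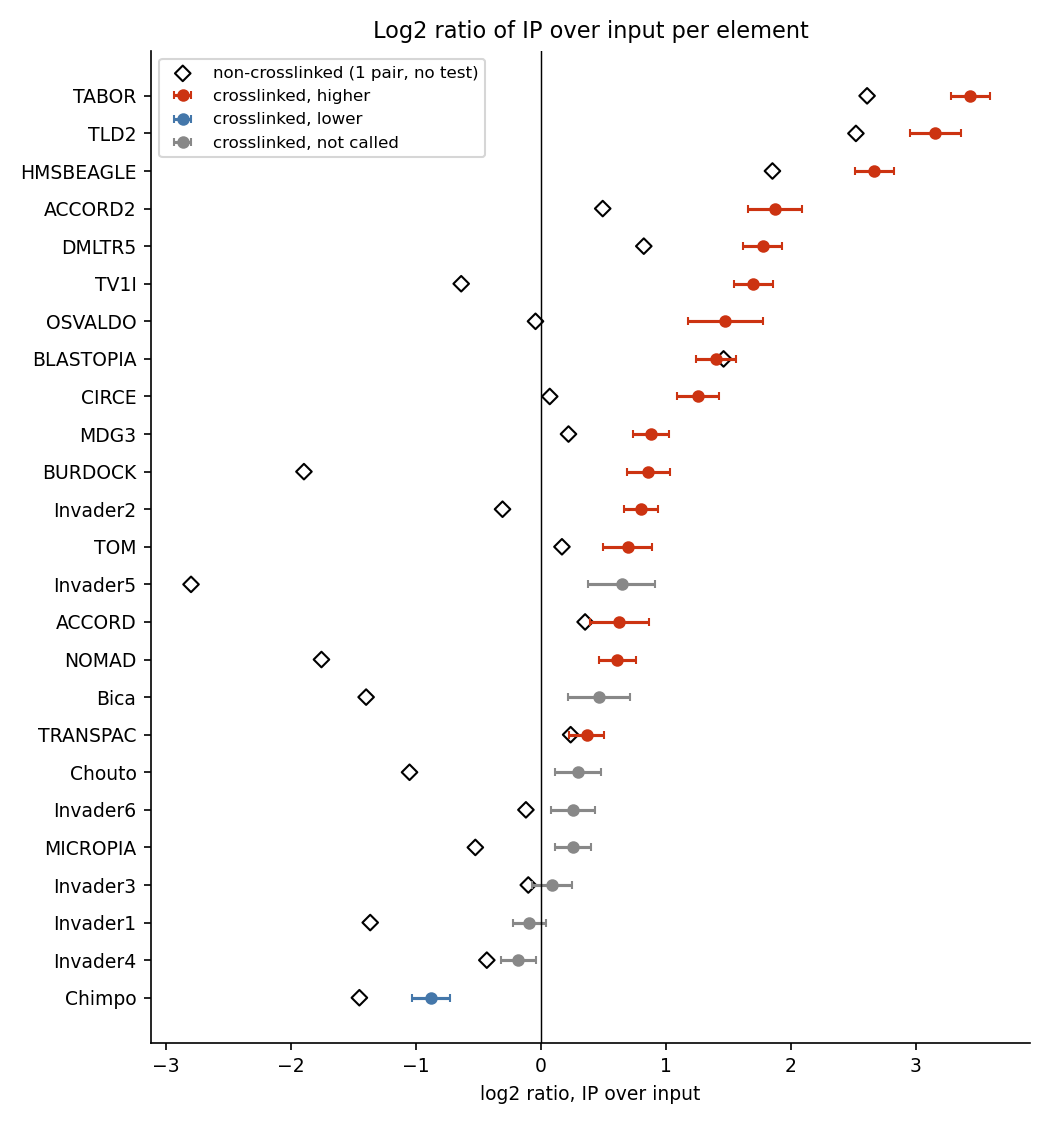
The log2 ratio of crosslinked IP over crosslinked input for each of the 25 elements (points, with the standard error of the fit as bars), beside the log2 ratio of the single non-crosslinked pair, which has no error. TABOR (3.44), TLD2 (3.16) and HMSBEAGLE (2.67) lie highest and Chimpo (-0.88) lowest.

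TABOR, TLD2 and HMSBEAGLE had the highest ratios of the 25. TABOR was measured at 3.87 and 4.13 RPM in the 2 crosslinked inputs, against 44.3 and 43.1 RPM in the 2 IPs. Its 2 IPs were close to each other and lay far above both inputs, with a log2 ratio of 3.44 (SE 0.16, adjusted p = 8.98e-12). HMSBEAGLE, the element of second highest read count, was at 28.5 and 26.9 RPM in the 2 crosslinked inputs, against 167 and 191 RPM in the 2 IPs. Again the groups did not overlap, with a log2 ratio of 2.67 (SE 0.16, adjusted p = 2.71e-10). TLD2, whose values were given in full after they were seen, was at 1.75 and 3.16 RPM in the 2 crosslinked inputs, against 20.4 and 21.8 RPM in the 2 IPs. Its inputs held few reads, 27.4 and 35.4, and its log2 ratio was 3.16 (SE 0.20, adjusted p = 7.94e-10). HMSBEAGLE made up 6.24% ± 0.307 (SD, n = 2) of the 27 elements' reads in crosslinked input, against 17.9% ± 0.154 (SD, n = 2) in IP.

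The 3 elements of the mdg3 group, BLASTOPIA, MDG3 and MICROPIA, differed among themselves. BLASTOPIA was at 125 and 132 RPM in the 2 crosslinked inputs, against 314 and 376 RPM in the 2 IPs. It rose by 1.40 (SE 0.16, adjusted p = 1.52e-06) on the log2 scale and was 28.9% ± 0.894 (SD, n = 2) of the 27 elements' reads in crosslinked input, against 34.4% ± 1.47 (SD, n = 2) in IP. MDG3 was at 54.2 and 50.5 RPM in the 2 crosslinked inputs, against 101 and 94.7 RPM in the 2 IPs, so that both IPs lay above both inputs. Its log2 ratio was 0.88 (SE 0.14, adjusted p = 8.71e-05). MICROPIA, an element first described in D. hydei, was at 13.7 and 12.6 RPM in the 2 crosslinked inputs, against 15.9 and 16.2 RPM in the 2 IPs. Both its IPs were above both inputs, yet the log2 ratio of 0.26 (SE 0.14, adjusted p = 0.166) missed the threshold.

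Of the 6 Invader elements, 1 rose, 0 fell and 5 passed in neither direction, against 20.3% higher and 17.3% lower over all tested items. Their median log2 ratio was 0.17. Invader2 was at 17.1 and 18.4 RPM in the 2 crosslinked inputs, against 29.5 and 33.2 RPM in the 2 IPs. It is the Invader element that rose, by 0.80 (SE 0.13, adjusted p = 1.19e-04) on the log2 scale. Invader1 was at 27.9 and 25.5 RPM in the 2 crosslinked inputs, against 24.1 and 26.9 RPM in the 2 IPs. Its groups overlapped, with a log2 ratio of -0.09 (SE 0.13, adjusted p = 0.623). Invader4 was at 24.2 and 21.4 RPM in the 2 crosslinked inputs, against 18.9 and 22.1 RPM in the 2 IPs, with overlapping groups and a log2 ratio of -0.18 (SE 0.14, adjusted p = 0.329).

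Invader3 was at 18.6 and 19.1 RPM in the 2 crosslinked inputs, against 16.4 and 24.5 RPM in the 2 IPs. The IPs fell on either side of the inputs, and the log2 ratio of 0.09 (SE 0.16, adjusted p = 0.716) turned to -0.22 without IP replicate 2. Invader5 was at 1.91 and 2.77 RPM in the 2 crosslinked inputs, against 3.41 and 3.88 RPM in the 2 IPs. Its IPs lay above its inputs in all 4 pairs, with a log2 ratio of 0.64 (SE 0.27, adjusted p = 0.0679), and 0.91 (adjusted p = 0.0160) without input replicate 2. Invader6 was at 8.40 and 12.0 RPM in the 2 crosslinked inputs, against 11.6 and 12.9 RPM in the 2 IPs. Input replicate 2 lay between the IPs, and the log2 ratio of 0.26 (SE 0.18, adjusted p = 0.270) was 0.53 (adjusted p = 0.0129) without input replicate 2 and -0.05 (adjusted p = 0.863) without input replicate 1.

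**Figure D2:**
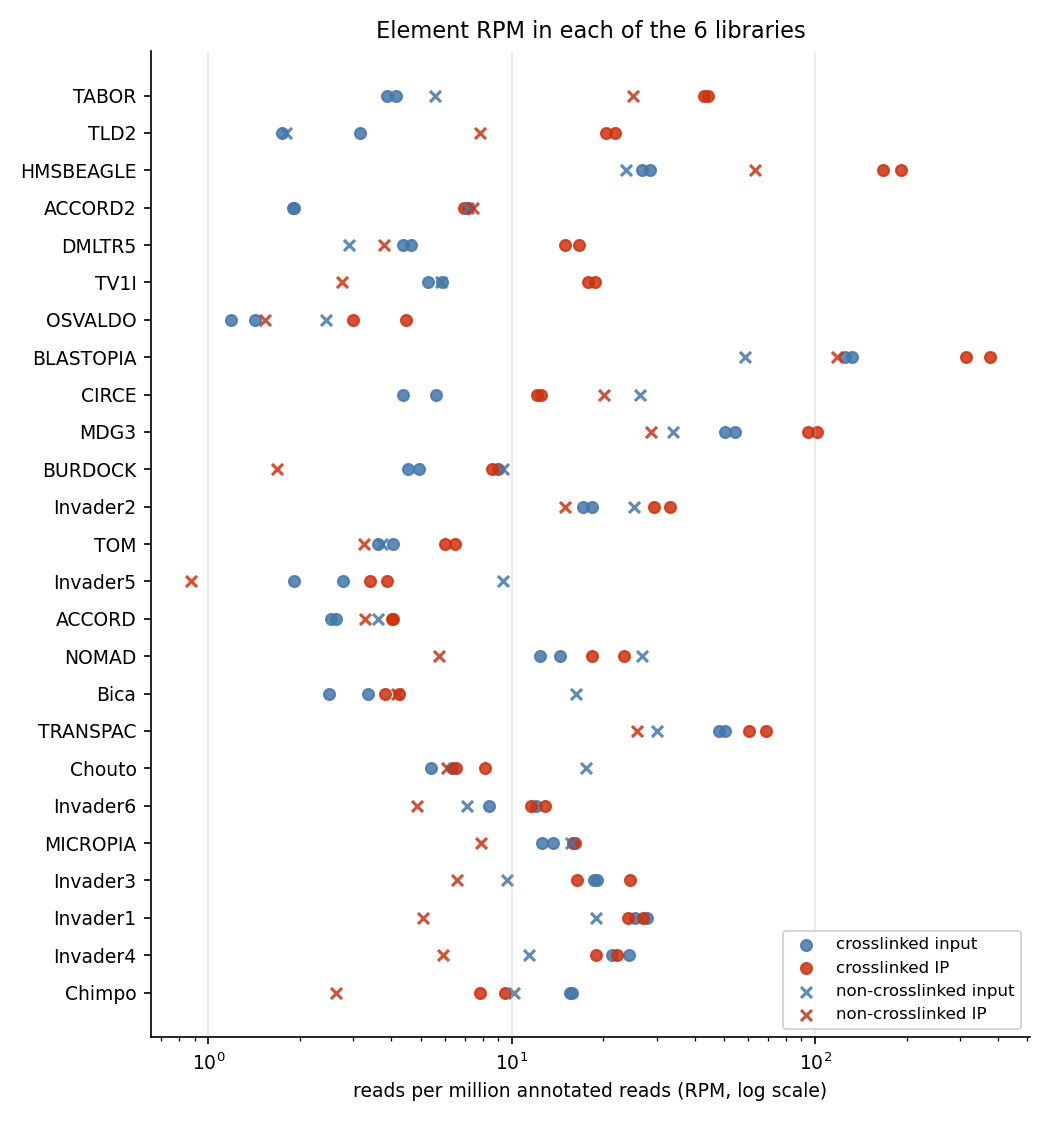
Level of each of the 25 elements in each of the 6 libraries, in RPM on a log axis, with one point per library coloured by group. The crosslinked IP points of TABOR, TLD2 and HMSBEAGLE lie well above the crosslinked inputs, those of Invader1, Invader3 and Invader4 mix with them, and those of Chimpo lie below.

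The remaining 16 reported elements belong to neither group, and 13 of them rose, 1 fell and 2 passed in neither direction, with a median log2 ratio of 1.06. ACCORD2, DMLTR5, TV1I, OSVALDO, CIRCE and BURDOCK rose by 0.86 to 1.87 on the log2 scale. ACCORD2 had a log2 ratio of 1.87 (SE 0.22, adjusted p = 2.04e-06), and DMLTR5 one of 1.77 (SE 0.16, adjusted p = 7.76e-08). TV1I, an element known from D. virilis, had a log2 ratio of 1.70 (SE 0.15, adjusted p = 9.39e-08). OSVALDO, first described in D. buzzatii, had one of 1.47 (SE 0.30, adjusted p = 7.55e-04) on 18.6 and 16 input reads. CIRCE rose by 1.26 (SE 0.17, adjusted p = 9.92e-06), a call that rested on 1 copy. BURDOCK, an element known as a target of germline piRNAs, rose by 0.86 (SE 0.17, adjusted p = 6.15e-04) from low levels, at 4.95 and 4.56 RPM in the 2 crosslinked inputs, against 8.58 and 8.99 RPM in the 2 IPs.

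A further 4 elements rose by less. NOMAD was at 14.4 and 12.3 RPM in the 2 crosslinked inputs, against 18.4 and 23.4 RPM in the 2 IPs. The groups did not overlap, with a log2 ratio of 0.61 (SE 0.15, adjusted p = 0.00345), but the call was lost without IP replicate 2, at 0.44 (adjusted p = 0.0965). With DESeq2 it was also lost, at adjusted p = 0.0700, as were those of TRANSPAC (0.222), TOM (0.197) and ACCORD (0.355). TRANSPAC, at 48.3 and 50.5 RPM in the 2 crosslinked inputs, against 60.5 and 68.8 RPM in the 2 IPs, was the fourth element by read count. Its IPs lay above its inputs in all 4 pairs. Its log2 ratio of 0.36 (SE 0.14, adjusted p = 0.0466) passed narrowly, and was 0.44 (adjusted p = 0.0887) without IP replicate 1, 0.27 (adjusted p = 0.319) without IP replicate 2 and 0.29 (adjusted p = 0.178) without input replicate 1.

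TOM, an element first described in D. ananassae, rose by 0.69 (SE 0.20, adjusted p = 0.00962), and lost its call without IP replicate 1, at 0.61 (adjusted p = 0.0820), and without input replicate 1, at 0.55 (adjusted p = 0.0790). ACCORD, known for an insertion beside the insecticide-resistance gene Cyp6g1, had a log2 ratio of 0.63 (SE 0.24, adjusted p = 0.0452). Its call was lost with any 1 of the 4 libraries left out, at adjusted p = 0.0629 to 0.177. Bica, at 0.46 (SE 0.25, adjusted p = 0.151), and Chouto, at 0.30 (SE 0.18, adjusted p = 0.220), did not pass. Bica passed without input replicate 2, at 0.69 (adjusted p = 0.0495).

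Chimpo went the other way. It was at 15.7 and 15.6 RPM in the 2 crosslinked inputs, against 7.84 and 9.49 RPM in the 2 IPs. Both IPs lay below both inputs, with a log2 ratio of -0.88 (SE 0.15, adjusted p = 1.82e-04). The elements under the minimum were Ulysses, with 14 and 10 reads in the crosslinked inputs, against 3 and 5 in the IPs, and DMTOM1, with 3 and 3.88 in the inputs and 7.26 and 9.65 in the IPs. No test was made for either.

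The annotation files LTRs and internal regions as separate entries, so the 2 parts of an element could be compared. Of the 27 elements, 18 had both parts, 4 only an internal part, 1 only an LTR, and 4 (CIRCE, DMLTR5, TLD2 and TV1I) carry no such mark in their names. Among 8 LTR parts that reached the count minimum 7 rose and 0 fell, with a median log2 ratio of 1.18. Among 21 internal parts 11 rose and 2 fell, with a median of 0.61. Over all items fitted with parts kept apart, 20.8% rose and 17.6% fell. In this fit 1 of the 8 LTR parts, that of TABOR, reached the minimum only through the IPs and could therefore pass only as higher. Of the other 7 LTR parts, 6 rose, and all 21 internal parts reached the minimum in both groups.

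Whether the LTR rose more than the internal part of the same element was tested with edgeR's diffSpliceDGE, a test added after the data were seen, over the 42 elements with both parts at the minimum. The LTR rose more in 54.8% of these and the internal part more in 14.3%. Rising more here means having the higher log2 ratio of the 2 parts, even where neither part rose, as in Chimpo. Among elements whose 2 parts reached the minimum in both crosslinked groups, which leaves TABOR out, the LTR rose more in 6 of the 7 described here and the internal part in 0. Among the other 28 such elements, the LTR rose more in 13 and the internal part in 6.

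Among the 8 tested LTR parts, that of TABOR was the one under the floor in both crosslinked inputs. The TABOR LTR held 2 and 2 reads in the 2 crosslinked inputs, against 129 and 98 in the 2 IPs. Both inputs were under the floor of 3 counts per library. The mean IP level, 13.2 RPM, was therefore at least 57.4 times the mean input level, with 0.229 RPM as the mean input floor. This bound is on the ratio of means, not on each pair, and leaves out counting error. The TABOR LTR was 3.30% and 4.31% of the element's reads in the 2 crosslinked inputs, against 31.0% and 29.3% in the 2 IPs. In the non-crosslinked pair this share was also higher in the IP, at 22.7% against 8.94% in the input, on 13 and 2 LTR reads. The internal part of TABOR rose too, by 2.97 (SE 0.16, adjusted p = 5.64e-12) in the fit with parts kept apart. The difference between its parts is not given as a value, since the LTR ratio is only a lower bound.

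In Invader2, Invader4 and Invader1 the LTR rose while the internal part rose less, fell or did not pass. The Invader2 LTR was 8.96% and 9.23% of the element's reads in the 2 crosslinked inputs, against 23.0% and 21.4% in the 2 IPs. The LTR less internal log2 ratio was 1.52 (adjusted p = 2.96e-05). Without crosslinking the Invader2 LTR was 44.3% of reads in the input and 49.8% in the IP, both above the crosslinked IPs. The Invader2 internal part had a log2 ratio of 0.57 (SE 0.14, adjusted p = 0.00249), or 0.47 (adjusted p = 0.0760) without IP replicate 2.

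The Invader4 LTR was 11.3% and 12.5% of the element's reads in the 2 crosslinked inputs, against 23.7% and 31.4% in the 2 IPs. The Invader4 LTR had a log2 ratio of 1.03 (SE 0.24, adjusted p = 0.00168) and its internal part one of -0.47 (SE 0.14, adjusted p = 0.0131), a pair of opposite calls inside an element that passed in neither direction as a whole. With DESeq2 neither part passed, at 1.04 (adjusted p = 0.0521) and -0.47 (adjusted p = 0.180). Without IP replicate 2 the LTR value was 0.70 (adjusted p = 0.0909) and the internal value -0.51 (adjusted p = 0.0718), and without IP replicate 1 the internal value was -0.45 (adjusted p = 0.0925). The difference between the 2 parts was 1.50 (adjusted p = 1.36e-04) and kept its call with each library left out. In the non-crosslinked pair the Invader4 LTR was 8.73% of reads in the input and 29.6% in the IP, on 4 and 4 LTR reads.

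The Invader1 LTR was 11.9% and 13.7% of the element's reads in the 2 crosslinked inputs, against 28.3% and 17.7% in the 2 IPs. Its log2 ratio was 0.77 (SE 0.22, adjusted p = 0.00894), against -0.27 (SE 0.14, adjusted p = 0.143) for the internal part. The Invader1 LTR call was lost without IP replicate 1, at 0.45 (adjusted p = 0.282). The LTR less internal log2 ratio was 1.05 (adjusted p = 0.00228). In the non-crosslinked pair the Invader1 LTR was 17.0% of reads in the input and 25.8% in the IP, on 13 and 3 LTR reads. Invader3, Invader5 and Invader6 had LTR parts under the minimum.

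MDG3 and BLASTOPIA, the 2 mdg3-group elements with both parts at the minimum, differed in this respect. The MDG3 LTR was 10.5% and 10.6% of the element's reads in the 2 crosslinked inputs, against 18.2% and 19.6% in the 2 IPs. Its LTR less internal log2 ratio was 0.98 (adjusted p = 3.33e-05). Without crosslinking the MDG3 LTR was 15.3% of reads in the input and 7.60% in the IP, on 21 and 5 LTR reads. In BLASTOPIA both parts rose, the LTR by 1.32 (SE 0.14, adjusted p = 1.89e-07) and the internal part by 1.41 (SE 0.16, adjusted p = 4.91e-07), and the difference of -0.09 (adjusted p = 0.532) did not pass.

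In Chimpo the internal part fell, at -0.99 (SE 0.16, adjusted p = 3.82e-05), and the LTR did not pass, at 0.00 (SE 0.39, adjusted p = 0.997). The difference of 0.99 (adjusted p = 0.0146) was lost without input replicate 1, at 0.90 (adjusted p = 0.130), and without input replicate 2, at 1.07 (adjusted p = 0.0520). In TRANSPAC the LTR rose, by 0.83 (SE 0.19, adjusted p = 0.00163), and the internal part did not pass, at 0.31 (SE 0.14, adjusted p = 0.0850). The difference of 0.52 (adjusted p = 0.0175) was lost without input replicate 2, at 0.32 (adjusted p = 0.225), and without IP replicates 1 or 2, at adjusted p = 0.0775 and 0.0747.

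Over all 18 elements with both parts, low counts included, the LTR share of an element's reads was higher in the IP in all 4 pairs in 8 elements and lower in all 4 pairs in 5, which is 44.4% and 27.8%. Among the 38 other transposon elements with both parts and reads in all 4 crosslinked libraries the figures were 57.9% and 21.1%. Summed over the 18, LTRs were 9.36% and 9.26% of reads in the crosslinked inputs, against 13.6% and 13.2% in the IPs. Without crosslinking they were 11.7% of reads in the input and 12.3% in the IP. In that pair the LTR share was higher in the IP than in the input in 7 of the 18 elements. Summed LTR reads were whole numbers, within 0.01, in 103 of 114 values and summed internal reads in 21 of 132. A sum that is not whole means that some of its reads were shared with features outside it.

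**Figure D3:**
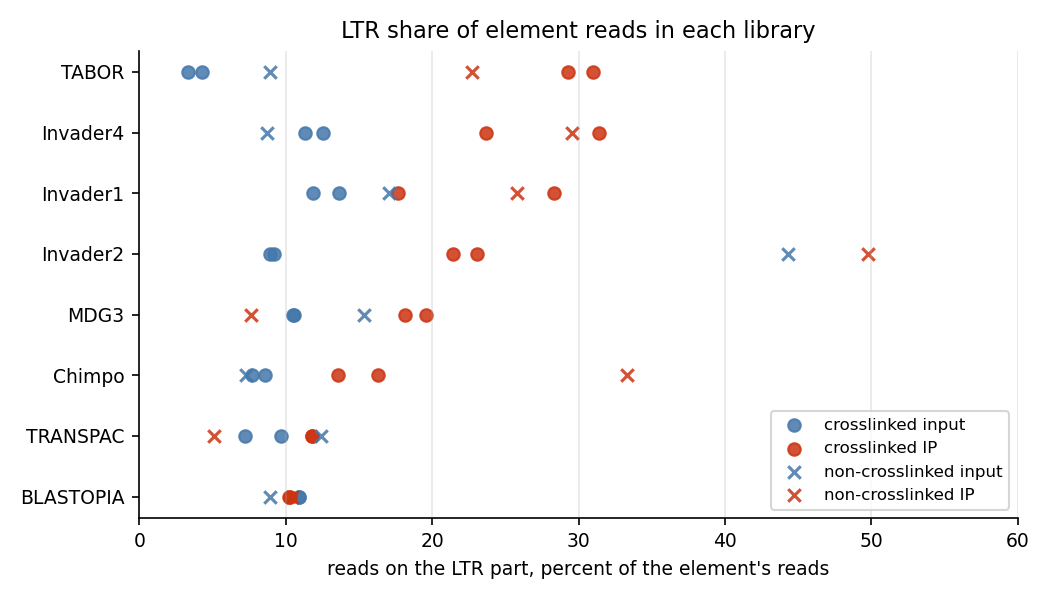
Percent of each element's reads that fell in its LTR, per library, for the elements whose LTR and internal parts both reached the count minimum. The crosslinked IPs of TABOR (31.0% and 29.3%) lie far above the inputs (3.30% and 4.31%), and those of BLASTOPIA lie slightly below theirs.

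Single copies were examined next, with each annotated copy as its own feature. Near-identical copies share fractional reads, so copies of an element are not independent and the split between them is uncertain. Of the 2592 copies, 99 reached the count minimum, of which 52 rose and 6 fell, against 22.3% and 19.8% of all 17684 single features. Of the 99, 9 reached the minimum only through the IPs and 17 only through the inputs. Of the 73 copies that reached it in both groups, 44 rose and 3 fell, and the matching share of all single features was not taken. Most of the 73 were copies of BLASTOPIA (25), HMSBEAGLE (14) and TRANSPAC (12). For 11 elements no single copy reached the minimum. Reads of copies are given unscaled, and the crosslinked IPs held fewer annotated reads (9397418 and 7764669) than the crosslinked inputs (15676049 and 11210024), while the log2 ratios account for depth.

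In BLASTOPIA 24 of 25 tested copies rose, and the log2 ratios of the 25 ran from 0.22 to 2.12. In HMSBEAGLE 13 of 15 rose. The copy HMSBEAGLE_I-int_dup310, which held the most reads of that element, had 23.1 and 12.7 reads in the 2 crosslinked inputs, against 119.6 and 112 in the 2 IPs, a log2 ratio of 3.34 (SE 0.18, adjusted p = 1.02e-06). HMSBEAGLE_I-int_dup158 had 26.8 and 15.8 reads in the 2 crosslinked inputs, against 9 and 13.4 in the 2 IPs, at -0.31 (SE 0.31, adjusted p = 0.524), so copies of HMSBEAGLE did not all move together. All 25 BLASTOPIA copies reached the minimum in both groups, and so did 14 of the HMSBEAGLE copies, of which 12 rose. Of the 6 tested TABOR copies 5 reached it only through the IPs, and the other, TABOR_I-int_dup12, had 13.1 and 9.56 reads in the 2 crosslinked inputs, against 58.8 and 45.8 in the 2 IPs, a log2 ratio of 2.83 (SE 0.22, adjusted p = 9.06e-06). All 5 tested MDG3 copies reached the minimum in both groups and rose, by 0.57 to 1.62.

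In MDG3 the copy MDG3_I-int_dup66 alone held 48.2% of the element's reads in the crosslinked libraries. It had 452 and 316 reads in the 2 crosslinked inputs, against 415 and 311 in the 2 IPs, with a log2 ratio of 0.57 (SE 0.13, adjusted p = 0.00786), the smallest of the 5 tested copies. Without it MDG3 had a log2 ratio of 1.20 (adjusted p = 1.45e-06). None of the 13 tested TRANSPAC copies passed, at 0.21 to 0.79. All 4 tested Chimpo copies reached the minimum only through the inputs, so their direction is not counted. Of the Invader1 copies 6 reached it in both groups, of which 1 fell, and the 1 Invader4 copy that reached it in both groups fell.

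The call of CIRCE rested on 1 copy. CIRCE_dup50 held 47.9% of the reads of CIRCE, with 15.8 and 17.2 reads in the 2 crosslinked inputs, against 69.6 and 63.8 in the 2 IPs, a log2 ratio of 2.67 (SE 0.22, adjusted p = 1.23e-05). Without crosslinking CIRCE_dup50 had 37.3 reads in the input and 33 in the IP. Those libraries held 4023956 and 2282994 annotated reads. The other tested copy of CIRCE reached the minimum only through the crosslinked IPs. Without CIRCE_dup50 the element was at 0.20 (adjusted p = 0.550) and no longer passed. In Chouto the opposite held. Its leading copy, Chouto_I-int_dup36, fell, at -0.87 (SE 0.29, adjusted p = 0.0392), and without it the element passed as higher, at 0.76 (adjusted p = 0.00730). Invader5 likewise passed without its leading copy, at 0.93 (adjusted p = 0.0259). ACCORD lost its call without its leading copy, at 0.65 (adjusted p = 0.0528). OSVALDO stayed higher but moved to 0.95 (adjusted p = 0.0385).

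ACCORD2 had a copy with 0 reads in both crosslinked inputs. ACCORD2_I-int_dup90 had 16 and 17 reads in the crosslinked IPs. Without crosslinking it had 0 reads in the input and 9 in the IP. It was under the minimum and was not tested. Without it ACCORD2 rose by 1.41 (adjusted p = 1.25e-04).

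**Figure D4:**
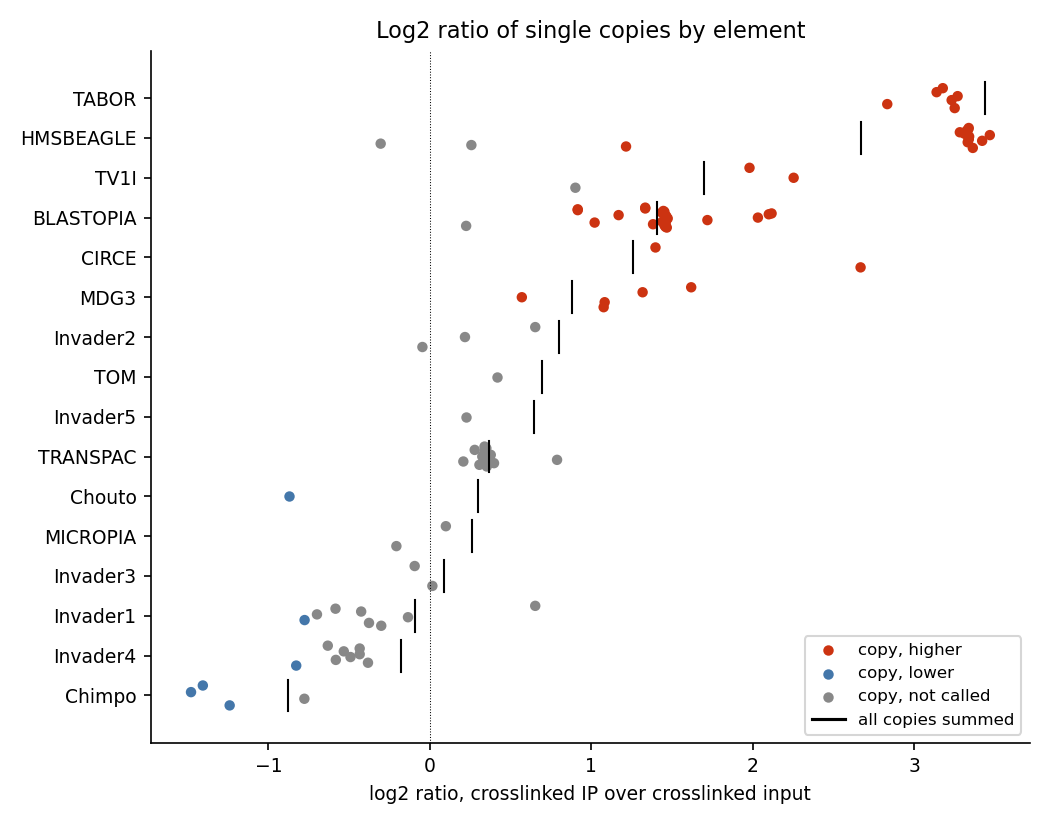
Log2 ratio of crosslinked IP over crosslinked input for each of the 99 copies tested singly (points), grouped by element, coloured by call, with a black tick at the value of all copies summed. Nearly all BLASTOPIA copies (24 of 25) and HMSBEAGLE copies (13 of 15) rose, and TRANSPAC copies (0 of 13) did not pass.

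The non-crosslinked pair has 1 library per group, so its values are given with no test. The 27 elements took 0.0387% of annotated reads in its input (95% Wilson interval 0.0368% to 0.0407%) and 0.0379% in its IP (0.0354% to 0.0405%). These intervals cover counting error only, since reads can be PCR copies. The median log2 ratio of IP over input in that pair was -0.10 for the 25 elements and -0.13 for all tested items with TMM scaling. With library size only both medians were -0.54. The ratio was above 0 in 11 of the 25 with TMM scaling and in 6 with library size only. In the non-crosslinked IP 9 of the 25 had fewer than 10 reads.

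A few elements were also higher in the IP without crosslinking. TABOR was at 5.56 RPM in the input and 25.1 RPM in the IP (Wilson interval 19.3 to 32.3), a log2 ratio of 2.61, or 2.14 with library size only. TLD2 had 1.80 RPM in the input and 7.85 RPM in the IP, at 2.52 and 2.04. HMSBEAGLE had 23.8 RPM in the input and 63.3 RPM in the IP (Wilson interval 53.6 to 74.3), at 1.85 and 1.39. BLASTOPIA had 58.6 RPM in the input and 118 RPM in the IP (Wilson interval 105 to 133). Its log2 ratio was 1.46, or 1.00 with library size only. With TMM scaling the crosslinked less the non-crosslinked log2 ratio was -0.07 in BLASTOPIA and above 0 in the other 24 elements, which makes 96% of the 25. It was above 0 in 87.5% of the 32 other Gypsy-superfamily elements, 90.8% of the 131 transposon elements and 53.4% of all tested items. With library size only, the fit gave BLASTOPIA a crosslinked log2 ratio of 1.43, above its non-crosslinked 1.00. The sign of the BLASTOPIA difference thus depends on the scaling.

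MDG3 had 34.1 RPM in the input and 28.8 RPM in the IP (Wilson interval 22.7 to 36.8), at 0.22, which became -0.23 with library size only. TRANSPAC had 30.1 RPM in the input and 25.8 RPM in the IP, at 0.24, which likewise became -0.22 with library size only. NOMAD and Chimpo lay further apart. NOMAD had 26.8 RPM in the input and 5.74 RPM in the IP, and Chimpo had 10.2 RPM in the input and 2.63 RPM in the IP. All 6 Invader elements were lower in the non-crosslinked IP than in its input with TMM scaling, though Invader3, at -0.10, and Invader6, at -0.12, lay slightly above the median of all tested items. Invader1 was at 19.0 RPM in the input and 5.09 in the IP. Invader2 was at 25.3 RPM in the input and 15.0 in the IP, and Invader3 at 9.61 and 6.57 RPM. Invader4 was at 11.4 and 5.93 RPM, and Invader6 at 7.12 and 4.86 RPM. Invader5 was at 9.32 and 0.876 RPM, the IP value being under the floor of 3 counts. Those IP values rest on 2 reads for Invader5 and 34.1 for Invader2.

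Levels in the non-crosslinked input differed from the crosslinked inputs for several elements. CIRCE was at 26.3 RPM there, against 5.61 and 4.37 RPM, and Bica at 16.2 RPM, against 2.50 and 3.35 RPM. BLASTOPIA was lower there, at 58.6 RPM. With 1 library, an effect of crosslinking and a feature of that library cannot be told apart.

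The genes of the somatic piRNA pathway showed how mRNAs of the same machinery behaved in the same libraries. Of 17 listed genes 14 were tested, of which 0 rose, 8 fell and 6 passed in neither direction. Over all tested items 20.3% rose and 17.3% fell. The list shares tj with the somatic markers above. The genes named next are among those that fell. The mRNA of piwi, the nuclear effector, had a log2 ratio of -0.66 (adjusted p = 0.00315), armi, a helicase of piRNA biogenesis, -0.49 (adjusted p = 0.00880), and fs(1)Yb, a Tudor-domain protein of the Yb bodies, -0.65 (adjusted p = 0.0131).

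The authors' deposited table gives 1 ratio per feature, whose formula is not stated in the sources used here, and it lists 739 of the 2592 copies. In the authors' deposited table the median ratio of these was 2.23, against 5.64 for 2300 listed copies of other LTR elements. By element, the authors' deposited table had its highest median for TABOR, at 102, then TLD2, at 22.8, and its lowest for Chimpo, at 0.621. The authors' deposited table gave HMSBEAGLE a median of 3.62, BLASTOPIA 2.83 and Invader1 1.29.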

How the data were processed

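Each library's file holds 2 values per feature that the authors deposited: an estimated count, which is fractional where a read matched several features, and an RPM. The deposited RPM take all reads of the library as the total, unannotated ones included. The authors also deposited, in a separate table, 1 ratio per feature. The submitters' processing notes name bcl2fastq 2.19, STAR 2.5.2b and bedtools 2.29.0, with the builds dm6 and mm10, and state no role for either build. Removal of PCR duplicates and the strand setting are not given in the sources used here.

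Features absent from a library's file were set to 0, and the row of unannotated reads, which names no feature, was left out of totals and tests. Estimated counts were summed per transposon element, gene or anticodon and rounded. Items with a mean of 10 or more reads over the 4 crosslinked libraries were tested with edgeR 4.0.16 (R 4.3.3, quasi-likelihood, TMM), 2 crosslinked IPs against 2 crosslinked inputs, with Benjamini-Hochberg adjustment over all items. Parts and single copies were fitted in the same way. Non-crosslinked ratios are log2 CPM with a prior count of 2. RPM in the text take annotated reads as the total. The main fit of summed items and the test of LTR against internal part were checked on simulated counts. The other fits were not. All elements with a mean of 10 or more reads are named. Values in every library are given for the 10 of highest mean and for every Invader element, and other elements or copies shown this way were picked with their values known. The elements, gene lists and alternatives were chosen with earlier results of these data known. Alternatives were DESeq2 1.42.0, limma 3.58.1 on log2(RPM + 1), other scalings and filters, and each library left out.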

Additional observations from a re-analysis of the deposited data

Results flagged for a closer look

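With TMM scaling, the IP of 8 elements lay above the input in all 4 crosslinked pairs and below it in the single non-crosslinked pair. The difference was not tested, since the non-crosslinked groups have 1 library each. On the log2 scale with TMM the non-crosslinked ratio was -2.80 for Invader5, -1.90 for BURDOCK, -1.76 for NOMAD, -1.40 for Bica, -0.64 for TV1I, -0.52 for MICROPIA, -0.31 for Invader2 and -0.0435 for OSVALDO. These are 8 of 25 elements, and the same pattern was present in 1505 of all 9386 tested items and in 32 of the 131 transposon elements. By RPM, MDG3, TRANSPAC, CIRCE, TOM, ACCORD and Chouto showed the pattern as well, so the count depends on the scaling. Of the 8, 7 lay below the median of all tested items, -0.13. The crosslinked pairs of Invader5 ran from 0.24 to 0.91, and those of NOMAD from 0.34 to 0.86. The non-crosslinked IP held 2 reads of Invader5, 3.83 of BURDOCK, 3.50 of OSVALDO and 13.1 of NOMAD. How far these few reads set the values was not tested.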

How the results depend on the processing

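The count of elements that rose, 16, was 12 with DESeq2, 12 with no filter on low counts (both without NOMAD, TOM, TRANSPAC and ACCORD), 14 with rRNA left out, and 13 to 18 with 1 library left out. Chimpo was the 1 element that fell in each of these. As single features, 52 copies rose and 6 fell. The median log2 ratio of 0.69 was 0.85 without leading copies, 0.50 with no filter, and 0.69 to 0.82 with 1 library left out. DESeq2 called 4 LTR parts higher, 7 internal parts higher and 1 lower. The LTR calls lost were those of Invader1, Invader4 and TRANSPAC, and the internal calls those of ACCORD, Invader2, NOMAD, TOM and Invader4. Over all items DESeq2 called 1088 higher and 738 lower, against 1906 and 1628. Internal parts that fell numbered 1 to 2 with 1 library left out, and elements whose LTR rose more, 7 with TABOR, 5 to 6. The 27 elements' share was 0.208% in input and 0.394% in IP with rRNA left out, a ratio of 1.89, and 0.0435% in input with unannotated reads kept.

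Some values changed sign, and none passed the test where its sign was turned. Invader3, at 0.09, was -0.11 with no filter and -0.22 to 0.34 with 1 library left out, and its internal part -0.0946 and -0.22 to 0.29. Invader6, at 0.26, was -0.0484 to 0.53 with 1 library left out, and its internal part -0.0356 to 0.54. The Chimpo LTR was -0.00511 with DESeq2, -0.15 with no filter, -0.0111 without rRNA, -0.0107 with the replicate block and -0.27 to 0.24 with 1 library left out. The cause was not tested.

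The replicate numbers were not taken to pair the libraries, since deviations of same-numbered libraries correlated at 0.041 across items. With the number as a block 17 elements rose and 1 fell, the added one being Invader5, at 0.63 (adjusted p = 0.0494), and the TRANSPAC internal part passed, at 0.31 (adjusted p = 0.0432). Depth limits the non-crosslinked pair most.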
